A study of Homo sapiens with 9 samples.

Results

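The genes described here encode collagen chains, laminin chains, the lysyl oxidases, and the matrix proteins FN1, SPARC, THBS1, TNC, FBN1 and POSTN, in U87 cells transfected with either form of miR-376a* or with a control miRNA. They were chosen by name: every probe set annotated with exactly 1 gene symbol was taken where that symbol named a collagen chain, a numbered laminin alpha, beta or gamma chain, LOX, LOXL1 to LOXL4, or 1 of those 6 proteins. This gave 64 genes, on 172 probe sets, of 19775 symbols and 54675 probe sets on the array, and the brightest probe set of a gene over the 9 arrays stood for it. U87 is an established human glioma line, and the groups were cells given 50 nM of miR-376a*A, of miR-376a*G or of control miRNA, with 3 biological replicates of each and RNA taken after 24 h. All 3 groups, the control included, were transfected with a lipid reagent, so none shows cells without a transfected duplex. From the published literature, miR-376a*A is the form without RNA editing, and the G stands where A-to-I editing changes the base. The question was which transcripts each form alters, with the control transfection as the reference.

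The extracellular matrix is built from chains that assemble inside the cell and crosslink outside it. Collagen chains wind into triple helices in particular combinations. The common form of type I collagen has the products of COL1A1 and COL1A2, and type VI those of COL6A1, COL6A2 and a longer chain such as that of COL6A3. Laminins are trimers of an alpha, a beta and a gamma chain that organise basement membranes, and lysyl oxidases oxidise lysines of collagen and elastin so that the fibres can crosslink. Glioma cells lay down such proteins around vessels and along their migration paths.

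The sequences below show the 5-prime arms named miR-376a as their genes encode them, because the pair of forms differs within a short RNA of this name. The labels do not say which of them the transfected duplexes follow, and the edited base is not marked. Both 5-prime arm sequences named miR-376a are from RefSeq (GRCh38.p14, chromosome 14, plus strand), at chr14:101040788-101040809 in MIR376A1 and chr14:101040080-101040100 in MIR376A2. Capitals mark the seed, bases 2 to 8, with which a miRNA pairs to its targets, and the seeds of the 2 sequences are not the same. The duplex sequences used for transfection, and the edited sequence, were not used here.
hsa-miR-376a-5p: gUAGAUUCuccuucuaugagua
hsa-miR-376a-2-5p: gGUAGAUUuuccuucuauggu

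Expression was read as linear probe-set signals, scaled by the authors to a common trimmed mean of about 100 on every array, and no sequencing depth applies. Differences are on the log2(signal + 16) scale, which understates changes of dim genes. Fold changes are these differences turned back from log2, so they carry the offset and understate ratios of the printed signals. A gene passed at an adjusted p under 0.05 in limma's moderated test over all 20068 features. Control replicates 1 and 2 varied more around their group mean (SD 0.164 and 0.145, log2) than the other 7 arrays (0.102 to 0.114). VIM and CD44, which mark mesenchymal-type glioma cells, had signals of 2009 to 2611 and 1821 to 2199, while the astrocyte markers GFAP and S100B stayed at 0.5 to 2.4. NES was at 63.8 to 105.4 and SOX9 at 67.8 to 112.2, with OLIG2 at 15.2 to 23.5 and SOX2 at 14.4 to 26.1. Of these glial and glioma markers only SOX9 passed, as higher with miR-376a*A (0.38, adjusted p = 0.0255). Epithelial and leukocyte markers did not exceed 20.5 and 22.3. Among them only CD3E passed, at -0.51 with miR-376a*G and 0.46 between the forms (adjusted p = 0.0175 and 0.0381). Markers of endothelial cells were uneven: the summed signal of 4 such genes was 81.1 to 90.8 in control, 126.7 to 151.6 with miR-376a*A and 96.2 to 119.5 with miR-376a*G, with CDH5 and VWF at 2.0 to 7.7. Of the 2 tested, PECAM1 differed by 0.71 with miR-376a*A and KDR by 0.48 with miR-376a*G (adjusted p = 6.25e-05 and 0.029). Of 5 fibroblast and pericyte markers, 4 were tested and 2 passed, in opposite directions. PDGFRB differed by 0.44 with miR-376a*A and -0.32 with miR-376a*G (adjusted p = 0.00825 and 0.037), and LUM by -0.49 and -0.03 (adjusted p = 0.00167 and 0.868). DCN and THY1 did not pass, PDGFRA was at 1.9 to 11.1, and the summed signal was 199.7 to 217.3, 190.3 to 199.5 and 204.7 to 221.8 with miR-376a*A, with miR-376a*G and in control. The part of these markers in the results was not tested.

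Of the 64 genes, 48 passed the filter on dim probe sets and were tested. The other 16 (COL14A1, COL19A1, COL23A1, COL24A1, COL26A1, COL28A1, COL2A1, COL3A1, COL4A1, COL4A3, COL6A5, COL6A6, COL9A1, COL9A3, LAMB4 and POSTN) did not exceed a signal of 18.9 on any array. Of the tested genes, 24 passed in at least 1 of 3 comparisons, a count for which the share of all features was not computed. With miR-376a*A, 17 of 48 passed against control (35.4%), 11 higher and 6 lower, beside 20.8% of all features (10.8% higher, 10% lower). With miR-376a*G, 12 of 48 passed (25%), 2 higher and 10 lower, beside 24.9% of all features (11.8% higher, 13.1% lower). Set directly against each other, the forms differed in 15 of 48 (31.2%), 13 higher and 2 lower with miR-376a*A, beside 18.3% of all features (10.4% and 7.9%). The median difference over the tested genes was 0.098, -0.057 and 0.178 (log2) in these 3 comparisons, and 0.041, -0.004 and 0.034 over all features. Both comparisons with control use the same 3 control arrays. Without control replicate 1 the count higher with miR-376a*G was 6 in place of 2, and when replicate 1 or 2 of the A form or control replicate 3 was left out the count higher with miR-376a*A was 7 in place of 11. The arrays measured RNA of whole cultures, so fewer expressing cells and less RNA per cell cannot be told apart.

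**Figure D1:**
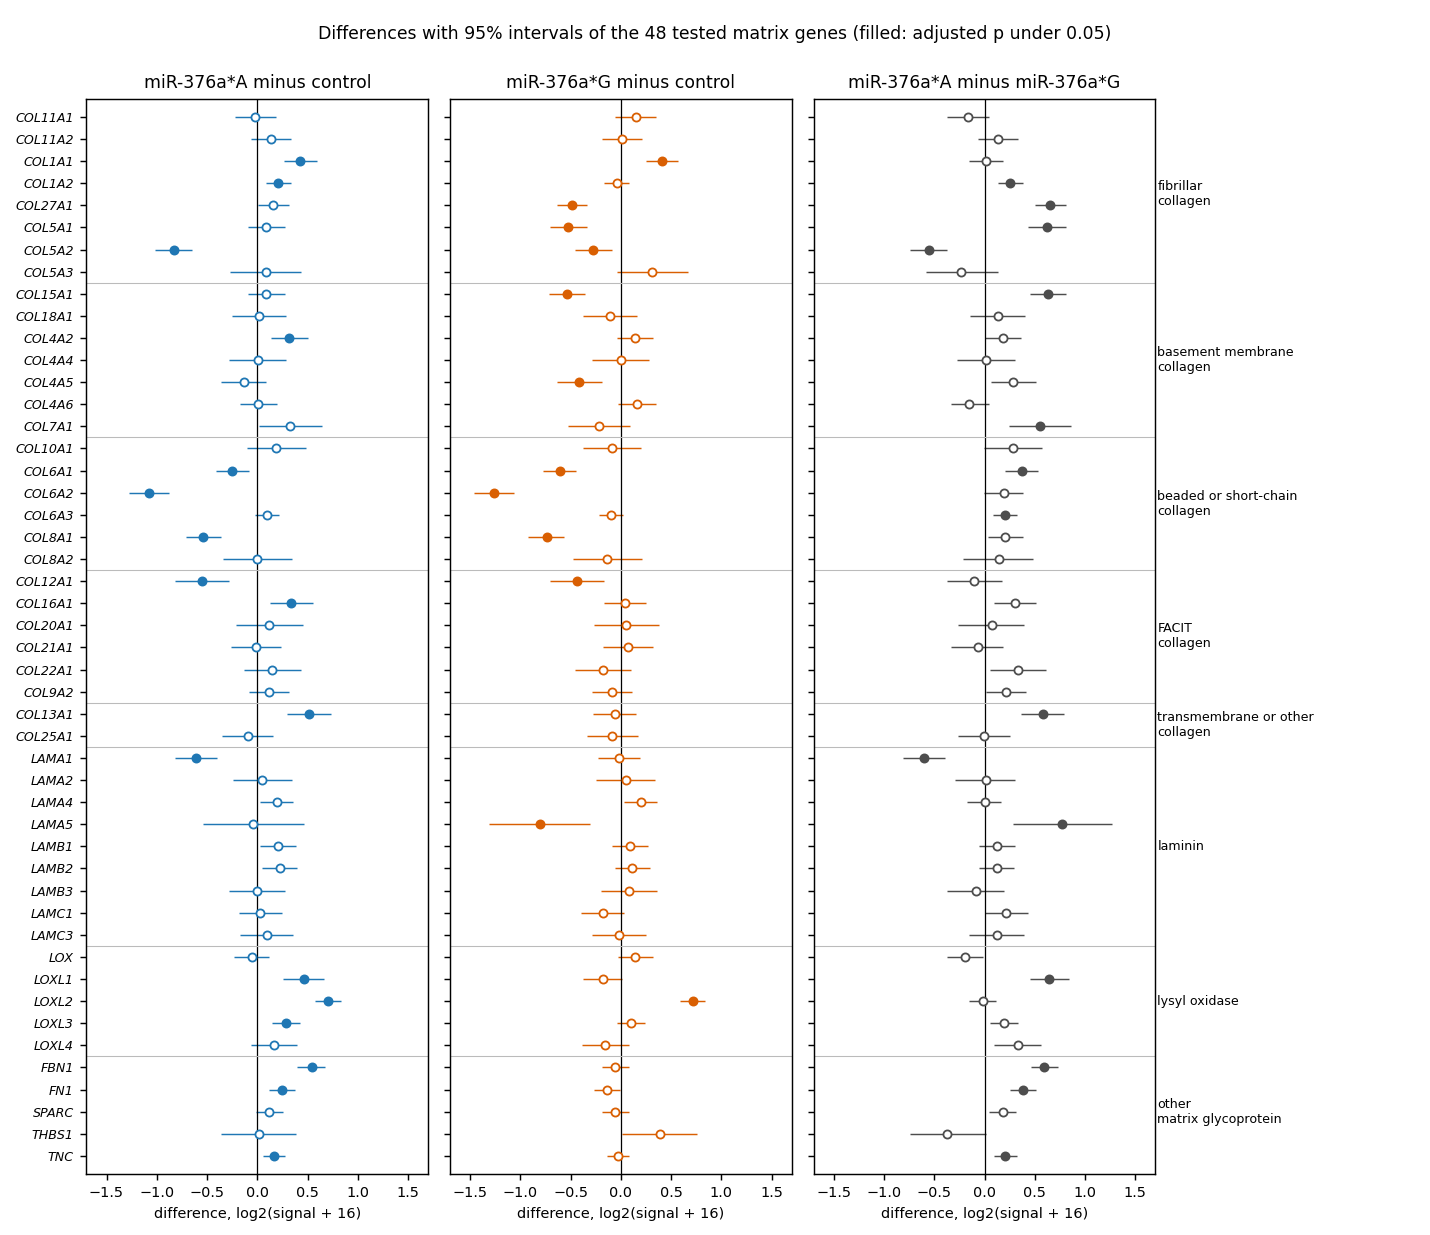
Difference in log2(signal + 16) with its 95% interval for each of the 48 tested genes (rows, grouped by role), for miR-376a*A minus control, miR-376a*G minus control, and miR-376a*A minus miR-376a*G. Filled points passed at an adjusted p under 0.05: 17, 12 and 15 genes, with COL6A2 farthest below 0 in both comparisons with control.

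Type VI collagen forms beaded filaments around cells, and its COL6A2 chain had the lowest difference of the 48 tested genes in both comparisons with control. COL6A2 signal was 160.8, 185.9 and 148.2 on the control arrays, 67.5, 72.4 and 68.6 with miR-376a*A, and 62.4, 53.7 and 61.7 with miR-376a*G. Every array of either form lay below every control array. On the scale with the offset, COL6A2 fell 2.11-fold with miR-376a*A (log2 difference -1.08 ± 0.0917 SE, adjusted p = 4.96e-06) and 2.4-fold with miR-376a*G (-1.26 ± 0.0917 SE, adjusted p = 1e-06). The forms did not differ past the threshold for this gene, at 0.19 with a 95% interval of -0.01 to 0.38 (adjusted p = 0.191). This fall was seen on 1 of 2 tested probe sets: the dimmer one read 35.5, 39.3 and 36.3 in control, 44.1, 37.1 and 44.5 with miR-376a*A and 30.6, 26.7 and 46.6 with miR-376a*G. Its differences, 0.12 ± 0.129 and -0.09 ± 0.129 (SE), did not pass. Averaged over both, COL6A2 stood at -0.48 and -0.67 with the A and G forms (adjusted p = 0.00358 and 0.000287).

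COL6A1, the neighbouring gene on chromosome 21 with 0 protein-coding genes between them, encodes another chain of the same trimer. Its signal was 678.8, 569.5 and 575.1 in control, 533.2, 493.1 and 497.5 with miR-376a*A and 384.4, 399.4 and 388.0 with miR-376a*G, 3 ranges that do not overlap. It fell 1.53-fold with miR-376a*G (-0.61 ± 0.0753 SE, adjusted p = 8.08e-05) and 1.19-fold with miR-376a*A (-0.25 ± 0.0753 SE, adjusted p = 0.0345), and the forms differed by 0.37 ± 0.0753 (SE, adjusted p = 0.00458). The 4 other tested probe sets of COL6A1 all passed as lower with miR-376a*G, at -1.09 to -0.41, and 2 of them with miR-376a*A. The smaller fall with miR-376a*A lost its call when replicate 2 or 3 of the A form or replicate 2 or 3 of the G form was left out (adjusted p = 0.122, 0.112, 0.054 and 0.0543).

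COL6A3, which encodes the long chain, did not pass against control with either form. It read 1836, 1804 and 1761 in control, 2009, 1878 and 1906 with miR-376a*A and 1625, 1678 and 1734 with miR-376a*G, so that the forms lay on either side of the control. Against control the differences were 0.10 (95% interval -0.02 to 0.22) and -0.10 (-0.22 to 0.02), and between the forms 0.20 ± 0.0541 (SE, adjusted p = 0.022). That call was lost after quantile normalization (0.16, adjusted p = 0.0842), after centring on the median (0.14, adjusted p = 0.106) and without any 1 of miR-376a*A replicates 1 to 3 or miR-376a*G replicates 1 and 2 (adjusted p between 0.0542 and 0.0935). As a percentage of their own control means, COL6A1, COL6A2 and COL6A3 stood at 83.6 ± 3.62, 42.1 ± 1.54 and 107 ± 3.81 (SD, n = 3) with miR-376a*A, and at 64.3 ± 1.29, 35.9 ± 2.93 and 93.3 ± 3.04 (SD, n = 3) with miR-376a*G. Whether the chains differed from each other in response was not tested.

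COL8A1, a short-chain collagen of vessel walls and of the layer under the endothelium of the cornea, fell with both forms. It read 523.1, 425.6 and 454.2 in control, 318.6, 319.2 and 310.4 with miR-376a*A and 255.4, 274.7 and 287.0 with miR-376a*G, all 6 below the lowest control. The falls were 1.45-fold (-0.54 ± 0.0806 SE, adjusted p = 0.00049) and 1.67-fold (-0.74 ± 0.0806 SE, adjusted p = 2.86e-05), and the direct difference was 0.20 (95% interval 0.03 to 0.38, adjusted p = 0.1). A second, dim probe set passed as lower with miR-376a*A (-0.27) and not with miR-376a*G (-0.21). Among the 6 tested beaded-filament and short-chain collagens 3 fell with either form and 0 rose, and COL8A2 and COL10A1 did not pass. The share that passed was 50% of only 6 genes, beside 20.8% and 24.9% of all features with the A and G forms.

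**Figure D2:**
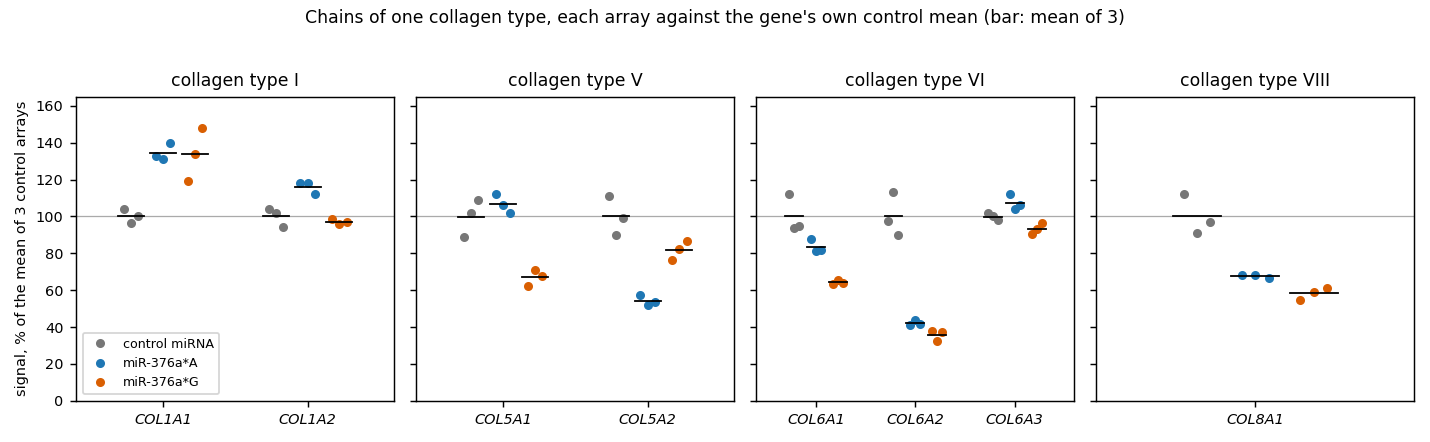
Signal of each array as a percentage of the gene's own mean over the 3 control arrays, for chains of collagen types I, V, VI and VIII, with points for arrays and bars for means of 3. COL6A2 stood at 42.1% and 35.9% of control with the A and G forms while COL6A3 stood at 107% and 93.3%, and in type V the lower chain was COL5A2 with miR-376a*A (54.3%) and COL5A1 with miR-376a*G (67.2%).

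Fibrillar collagens, which form the striated fibres of the matrix, moved both ways. In type V collagen COL5A2 fell with both forms, more with miR-376a*A, and COL5A1 fell with miR-376a*G only. COL5A2 signal was 454.3, 368.1 and 405.0 in control, 235.0, 212.6 and 218.7 with miR-376a*A and 311.6, 335.7 and 354.2 with miR-376a*G. The groups did not overlap, and the A form was the lowest. COL5A2 fell 1.78-fold with miR-376a*A (-0.83 ± 0.0847 SE, adjusted p = 2.11e-05) and 1.21-fold with miR-376a*G (-0.28 ± 0.0847 SE, adjusted p = 0.0301), and the forms differed by -0.55 ± 0.0847 (SE, adjusted p = 0.000567). A second probe set gave -0.75, -0.28 and -0.47 in these comparisons and passed in each. The fall with miR-376a*G lost its call when replicate 1 or 2 of the G form or control replicate 1 or 3 was left out (adjusted p = 0.116, 0.0807, 0.0555 and 0.0653) and after centring on the median (-0.26, adjusted p = 0.0528).

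COL5A1, the partner chain that is present in most type V trimers, fell with miR-376a*G and not with miR-376a*A. It read 217.5, 249.7 and 267.7 in control and 275.4, 260.5 and 248.7 with miR-376a*A, which overlap, and 153.1, 174.5 and 166.1 with miR-376a*G, which lie below both. COL5A1 fell 1.44-fold with miR-376a*G (-0.53 ± 0.0857 SE, adjusted p = 0.000689) and stood at 0.09 with miR-376a*A (95% interval -0.09 to 0.28). The direct difference was 0.62 ± 0.0857 (SE, adjusted p = 0.000256), and the other pair of probe sets passed in the same direction for the fall with miR-376a*G (-0.52 and -0.37) and between the forms (0.59 and 0.78). The mean over the probe sets of COL5A1 passed as higher with miR-376a*A, at 0.19 (adjusted p = 0.0397).

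COL27A1, a fibrillar collagen of cartilage, showed the same order of groups as COL5A1. Its signal was 188.7, 203.3 and 184.6 in control, 219.8, 218.4 and 213.3 with miR-376a*A and 126.5, 139.0 and 131.6 with miR-376a*G, with no overlap between any groups. It fell 1.4-fold with miR-376a*G (-0.49 ± 0.0706 SE, adjusted p = 0.000287), stood at 0.16 with miR-376a*A (adjusted p = 0.121), and differed between the forms by 0.65 ± 0.0706 (SE, adjusted p = 3.43e-05). Its other probe sets did not pass as lower with miR-376a*G (-0.30 and -0.13), while both passed between the forms (0.79 and 0.43), and 1 of them passed as higher with miR-376a*A (0.48). Averaged over its probe sets it was higher with miR-376a*A as well, at 0.31 (adjusted p = 0.012).

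Type I collagen, the most abundant fibrillar collagen of the body, has the chains COL1A1 and COL1A2. COL1A1 read 1500, 1393 and 1448 in control, 1931, 1893 and 2031 with miR-376a*A and 1725, 1943 and 2147 with miR-376a*G. The control was below all 6 other arrays. COL1A1 rose 1.34-fold with miR-376a*A (0.43 ± 0.0744 SE, adjusted p = 0.00146) and 1.33-fold with miR-376a*G (0.41 ± 0.0744 SE, adjusted p = 0.00144). Its probe sets did not share a direction. Of the 4 others, 1 passed as higher with both forms (1.07 and 0.79, from 48.2, 66.7 and 43.0 in control), and 2 passed as lower with miR-376a*G (-0.43 and -0.57, from 170.4, 194.2 and 146.3 and from 113.6, 54.8 and 81.4). Averaged over its probe sets, COL1A1 stood at 0.01 with miR-376a*G (adjusted p = 0.919), so its direction there depends on the probe set.

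COL1A2 read 1394, 1368 and 1266 in control, 1590, 1581 and 1504 with miR-376a*A and 1324, 1286 and 1300 with miR-376a*G, the last within the control range. It rose 1.16-fold with miR-376a*A (0.21 ± 0.0572 SE, adjusted p = 0.0189) and differed between the forms by 0.25 ± 0.0572 (SE, adjusted p = 0.00787). Both other probe sets passed in the same direction in these comparisons, at 0.29 and 0.98 with miR-376a*A and at 0.56 and 0.80 between the forms. With miR-376a*G the 3 probe sets read -0.04, -0.27 and 0.18, of which the -0.27 passed. The rise of the main probe set was lost after quantile normalization (0.11, adjusted p = 0.2) and when replicate 1 or 2 of the A form or control replicate 3 was left out (adjusted p = 0.0693, 0.0823 and 0.0733). Of the 8 tested fibrillar collagens, 2 rose and 1 fell with miR-376a*A, and 1 rose and 3 fell with miR-376a*G. Those shares are 37.5% and 50% of only 8 genes, beside 20.8% and 24.9% of all features. COL5A3, COL11A1 and COL11A2 did not pass in any comparison.

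The upstream sequences of COL6A2, which fell with both forms, and of COL5A1 and COL27A1, which fell with miR-376a*G, are given to show what these genes carry before their start. They are the 250 bases upstream of the RefSeq start in GRCh38.p14, on the plus strand, at chr21:46097862-46098111, chr9:134641553-134641802 and chr9:114155287-114155536. Capitals mark every match, on either strand, to the GC box GGGCGG, the CCAAT box CCAAT, the TATA box TATAAA or the AP-1 site TGACTCA. COL6A2 held 4 GC boxes and 1 TATA box, and COL5A1 and COL27A1 held 2 GC boxes each. Matches are a description and not sites of binding, and of 35116 upstream windows of the same length 42.6% held a GC box, 32% a CCAAT box, 10.7% a TATA box and 4.2% an AP-1 site. Among 49 genes of the 64 with a window, 57.1%, 24.5%, 10.2% and 2.04% held them. COL1A1, COL1A2, COL5A2, COL6A1, COL8A1, LAMA1 and LOXL2, which passed against control, were among the genes without a window.
COL6A2: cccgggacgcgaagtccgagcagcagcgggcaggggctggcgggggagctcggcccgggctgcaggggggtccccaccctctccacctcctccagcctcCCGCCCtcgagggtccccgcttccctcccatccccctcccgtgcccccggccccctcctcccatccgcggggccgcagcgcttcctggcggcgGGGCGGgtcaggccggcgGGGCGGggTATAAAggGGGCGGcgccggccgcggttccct
COL5A1: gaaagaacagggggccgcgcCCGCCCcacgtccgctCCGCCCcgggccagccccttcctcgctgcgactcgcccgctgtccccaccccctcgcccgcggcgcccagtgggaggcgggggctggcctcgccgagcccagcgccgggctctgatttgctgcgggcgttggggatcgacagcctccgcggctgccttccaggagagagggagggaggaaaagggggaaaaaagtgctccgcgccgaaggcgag
COL27A1: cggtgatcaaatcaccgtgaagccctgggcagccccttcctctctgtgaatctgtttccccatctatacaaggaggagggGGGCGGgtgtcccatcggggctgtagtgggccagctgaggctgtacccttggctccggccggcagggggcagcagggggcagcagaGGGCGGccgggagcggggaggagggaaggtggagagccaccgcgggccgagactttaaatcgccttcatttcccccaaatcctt

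Collagens of basement membranes, the sheets that underlie epithelia and vessels, had 7 tested members. Of these, 1 rose with miR-376a*A and 2 fell with miR-376a*G (14.3% and 28.6%, beside 20.8% and 24.9% of all features). COL4A2, a network-forming chain, read 176.9, 217.4 and 192.4 in control, 233.2, 254.3 and 256.5 with miR-376a*A and 216.3, 206.8 and 228.5 with miR-376a*G. The A form lay above both other groups. COL4A2 rose 1.25-fold with miR-376a*A (0.32 ± 0.0832 SE, adjusted p = 0.0156), and that call was lost without miR-376a*A replicate 2 or 3 (adjusted p = 0.0642 and 0.0667) and when its probe sets were averaged (0.23, adjusted p = 0.0546). COL4A1, whose product joins that of COL4A2 in the same trimer, was at 1.7 to 9.9 on all 9 arrays and was not tested. These genes start back to back on chromosome 13, and the 126 bases between their starts, at chr13:110307158-110307283 of GRCh38.p14, are printed on the plus strand, in the direction of COL4A2, because the pair shares them. Capitals mark 1 CCAAT box and 1 GC box.
COL4A1-COL4A2: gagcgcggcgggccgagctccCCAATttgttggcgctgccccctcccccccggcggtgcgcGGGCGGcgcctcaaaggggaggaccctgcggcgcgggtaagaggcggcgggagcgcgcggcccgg

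COL4A5, a type IV chain whose defects cause Alport syndrome, fell with miR-376a*G. It read 198.4, 146.4 and 170.4 in control, 161.6, 161.6 and 140.8 with miR-376a*A and 113.7, 125.6 and 133.1 with miR-376a*G, which was the lowest group. The fall was 1.33-fold (-0.42 ± 0.104 SE, adjusted p = 0.011) and was lost without miR-376a*G replicate 1 (-0.36, adjusted p = 0.0508). COL4A6, which starts 379 bases away on the opposite strand of chromosome X, read 64.6 to 77.8 in control and stood at 0.01 (95% interval -0.17 to 0.2) and 0.16 (-0.03 to 0.35) with the A and G forms.

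COL15A1, a proteoglycan collagen that links basement membranes to the tissue below, fell with miR-376a*G and separated the forms. Its signal was 53.6, 52.9 and 50.1 in control, 55.9, 58.6 and 56.1 with miR-376a*A and 34.4, 29.4 and 29.2 with miR-376a*G. It fell 1.45-fold with miR-376a*G (-0.54 ± 0.0833 SE, adjusted p = 0.000488) and differed between the forms by 0.63 ± 0.0833 (SE, adjusted p = 0.00017). COL7A1, which forms the anchoring fibrils of skin, read 154.5, 207.5 and 139.1 in control, 238.6, 195.6 and 201.9 with miR-376a*A and 172.0, 118.4 and 132.2 with miR-376a*G. It passed between the forms (0.55 ± 0.145 SE, adjusted p = 0.019) and not against control (0.33 and -0.22). A second probe set of COL7A1 gave 1.18 ± 0.204 (SE) between the forms and passed as higher with miR-376a*A, at 0.77 ± 0.204 (SE). The call on the main probe set was lost when replicate 1 of the A form or replicate 2 or 3 of the G form was left out (adjusted p = 0.0853, 0.0921 and 0.073), and without control replicate 2 COL7A1 passed with miR-376a*A (0.48, adjusted p = 0.0211).

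Among collagens that sit on fibres or span the membrane, 3 passed on their main probe sets. With the A and G forms, 33.3% and 16.7% of 6 tested fibril-associated collagens passed, beside 20.8% and 24.9% of all features. Of 2 tested transmembrane or other collagens, 50% and 0% passed. COL22A1, a fibril-associated collagen, passed only on a second, dim probe set. It was higher there with miR-376a*A (0.48 ± 0.0961 SE, adjusted p = 0.00342) and between the forms (0.46 ± 0.0961 SE, adjusted p = 0.00469). COL12A1, a fibril-associated collagen of tendon and ligament, fell with both forms. It read 490.4, 331.2 and 330.1 in control, 269.4, 259.1 and 232.8 with miR-376a*A and 280.4, 276.5 and 263.2 with miR-376a*G. Control replicate 1 stood apart, yet the other pair of controls also lay above all 6 arrays of the forms. The falls were 1.46-fold (-0.55 ± 0.125 SE, adjusted p = 0.00804) and 1.36-fold (-0.44 ± 0.125 SE, adjusted p = 0.0205). Without control replicate 1 they were -0.36 and -0.26 (adjusted p = 0.00228 and 0.0129). Yet none of its 4 other tested probe sets, all dim, passed (-0.35 to 0.02 and -0.30 to 0.23). The mean of its probe sets did not pass with either form (-0.24 and -0.10, adjusted p = 0.0735 and 0.46), and the call with miR-376a*G was lost without miR-376a*G replicate 2 or 3 (adjusted p = 0.056 and 0.0708).

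COL13A1, a transmembrane collagen of cell junctions, rose with the A form. It read 61.7, 69.1 and 80.3 in control, 116.6, 97.9 and 106.2 with miR-376a*A and 60.3, 69.9 and 69.0 with miR-376a*G, the last overlapping the control. The rise was 1.43-fold (0.51 ± 0.0991 SE, adjusted p = 0.00294) and the direct difference 0.58 ± 0.0991 (SE, adjusted p = 0.00136). Neither of 2 other probe sets passed, at 0.16 and 0.30 with miR-376a*A. COL16A1, another fibril-associated collagen, read 168.0, 162.2 and 147.5 in control, 213.3, 217.2 and 186.3 with miR-376a*A and 190.8, 151.4 and 153.2 with miR-376a*G. It rose 1.26-fold with miR-376a*A (0.34 ± 0.0968 SE, adjusted p = 0.0265), a call that was lost when replicate 1 or 2 of the A form or control replicate 3 was left out (adjusted p = 0.09, 0.103 and 0.092).

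Of 9 tested laminin chains, 2 passed, and each fell with a different form. That is 11.1% with either form against control, below the 20.8% and 24.9% of all features, and 22.2% between the forms, beside 18.3%. LAMA1, the alpha chain of the laminin of early embryos, read 84.7, 72.7 and 73.9 in control, 42.2, 47.1 and 45.2 with miR-376a*A and 88.2, 68.6 and 72.1 with miR-376a*G. The A form lay below both other groups, which overlapped. LAMA1 fell 1.53-fold with miR-376a*A (-0.61 ± 0.0971 SE, adjusted p = 0.000757), stood at -0.02 with miR-376a*G (95% interval -0.23 to 0.19), and differed between the forms by -0.60 ± 0.0971 (SE, adjusted p = 0.000924). LAMA5, the alpha chain of many adult basement membranes, read 102.7, 112.7 and 104.3 in control, 117.5, 80.1 and 115.9 with miR-376a*A and 85.5, 28.3 and 59.6 with miR-376a*G. Its arrays were spread widely within both forms. It fell 1.76-fold with miR-376a*G (-0.81 ± 0.229 SE, adjusted p = 0.0209), and without miR-376a*G replicate 2 the value was -0.48 (adjusted p = 0.0549). The call was also lost without control replicate 3 (adjusted p = 0.0528), and the difference between the forms (0.77 ± 0.229 SE, adjusted p = 0.0342) was lost when replicate 1 or 3 of the A form, 2 or 3 of the G form or 3 of the control was left out (adjusted p between 0.0524 and 0.118). Without miR-376a*G replicate 2 that difference was 0.44 (adjusted p = 0.0964).

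The other 7 laminin chains did not pass in any comparison on their main probe sets, though second probe sets of LAMB1 and LAMC1 did. That of LAMB1 passed as higher with miR-376a*A (0.36 ± 0.088 SE, adjusted p = 0.011), and that of LAMC1 as lower with miR-376a*G (-0.24 ± 0.0715 SE, adjusted p = 0.0287). LAMC1, the gamma chain shared by most laminins, read 811.9, 619.1 and 711.6 in control, 765.9, 734.4 and 679.2 with miR-376a*A and 556.1, 642.6 and 676.9 with miR-376a*G. It stood at 0.03 (95% interval -0.18 to 0.25) and -0.18 (-0.40 to 0.03), and passed as lower with miR-376a*G without control replicate 2 (-0.28, adjusted p = 0.0412). LAMB2 with miR-376a*A had the smallest adjusted p of the laminins that did not pass there, at 0.23 ± 0.08 (SE, adjusted p = 0.0622). The rest were LAMA2, LAMA4, LAMB1, LAMB3 and LAMC3.

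**Figure D3:**
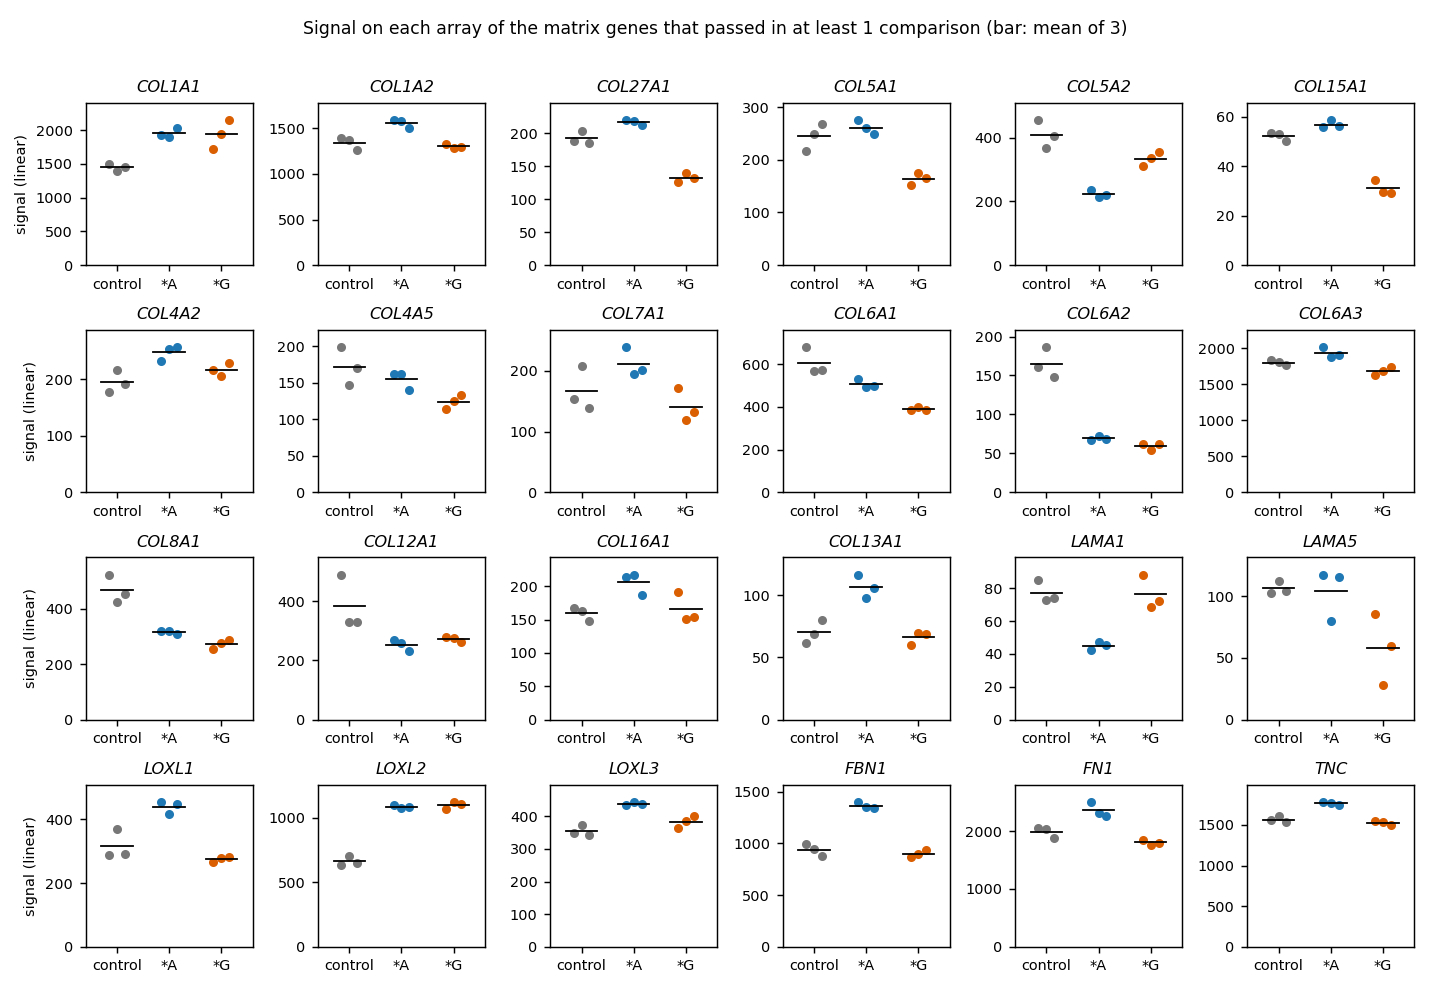
Linear signal on each array (points) and group mean of 3 (bar) for the 24 genes that passed in at least 1 comparison, with control, miR-376a*A and miR-376a*G from left to right and each axis starting at 0. Of those that passed against control, COL5A2, COL6A1, COL6A2, COL8A1 and COL12A1 passed as lower with both forms. COL4A5, COL5A1, COL15A1, COL27A1 and LAMA5 passed as lower with miR-376a*G only, and LAMA1 with miR-376a*A only. COL1A1 and LOXL2 passed as higher with both, and the rest as higher with miR-376a*A only.

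The lysyl oxidases, enzymes that prepare collagen and elastin for crosslinking, rose where their main probe set passed, while a second probe set of LOX passed as lower with miR-376a*A. On the main probe sets of 5 tested genes, 3 rose with miR-376a*A and 1 with miR-376a*G, and 0 fell. These are 60% and 20% of only 5 genes, beside 20.8% and 24.9% of all features. LOXL2, which acts on type IV collagen, read 636.0, 704.8 and 645.3 in control, 1097, 1071 and 1081 with miR-376a*A and 1065, 1121 and 1104 with miR-376a*G. The forms overlapped each other, well above control. LOXL2 rose 1.62-fold (0.70 ± 0.0596 SE, adjusted p = 5e-06) and 1.64-fold (0.72 ± 0.0596 SE, adjusted p = 3.03e-06), and the difference between the forms was -0.02 (95% interval -0.15 to 0.11). The rise rests on 1 probe set, since 2 dim ones gave 0.07 and 0.17 with miR-376a*A and 0.17 and 0.12 with miR-376a*G and did not pass. Averaged over its probe sets LOXL2 stood at 0.31 and 0.34 with the A and G forms (adjusted p = 0.00553 and 0.00283).

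LOXL1, which is needed for elastic fibre upkeep, separated the forms. It read 288.3, 370.0 and 292.0 in control, 454.6, 416.4 and 447.1 with miR-376a*A and 265.0, 279.9 and 281.9 with miR-376a*G. The A form lay above all other arrays and the G form just below the control. LOXL1 rose 1.38-fold with miR-376a*A (0.46 ± 0.0901 SE, adjusted p = 0.00316), stood at -0.18 with miR-376a*G (95% interval -0.38 to 0.01), and differed between the forms by 0.64 ± 0.0901 (SE, adjusted p = 0.000289). LOXL3 read 348.6, 374.6 and 343.5 in control, 435.2, 443.8 and 436.1 with miR-376a*A and 363.0, 385.8 and 399.9 with miR-376a*G. It rose 1.22-fold with miR-376a*A (0.29 ± 0.0655 SE, adjusted p = 0.00736), while the direct difference of 0.19 did not pass (adjusted p = 0.0651). LOX, the founding enzyme of the family, read 503.5 to 622.6 in control on its main probe set and did not pass there, at -0.05 (95% interval -0.23 to 0.12) with miR-376a*A and 0.14 (-0.03 to 0.32) with miR-376a*G. A second probe set of LOX read 410.7, 393.1 and 355.8 in control, 282.2, 319.9 and 310.2 with miR-376a*A and 435.1, 404.5 and 418.7 with miR-376a*G. The A form was below all other arrays there, and it passed as lower against control (-0.33 ± 0.0757 SE, adjusted p = 0.00792) and against the G form (-0.45 ± 0.0757 SE, adjusted p = 0.00121). LOXL4 did not pass.

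On their main probe sets, 3 of the 5 other matrix proteins rose with miR-376a*A, 0 passed with miR-376a*G, and 3 were higher with the A than with the G form. These are 60%, 0% and 60% of only 5 genes, beside 20.8%, 24.9% and 18.3% of all features. FBN1, the fibrillin of microfibrils, read 988.2, 944.1 and 875.0 in control, 1399, 1350 and 1341 with miR-376a*A and 868.6, 893.4 and 930.2 with miR-376a*G. All 3 arrays of the A form were higher than the other 6, which overlapped. FBN1 rose 1.45-fold with miR-376a*A (0.54 ± 0.0618 SE, adjusted p = 6.03e-05), stood at -0.06 with miR-376a*G (95% interval -0.19 to 0.08), and differed between the forms by 0.59 ± 0.0618 (SE, adjusted p = 2.37e-05). Both other probe sets passed with miR-376a*A (0.51 and 0.39) and between the forms (0.83 and 0.49), and 1 of them passed as lower with miR-376a*G (-0.32).

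FN1, fibronectin, to which integrins bind, read 2053, 2030 and 1873 in control, 2502, 2318 and 2253 with miR-376a*A and 1849, 1756 and 1801 with miR-376a*G. The order was A form, control, G form with no overlap. FN1 rose 1.19-fold with miR-376a*A (0.25 ± 0.06 SE, adjusted p = 0.0116), stood at -0.14 with miR-376a*G (adjusted p = 0.117), and differed between the forms by 0.38 ± 0.06 (SE, adjusted p = 0.000679). The rise was lost after quantile normalization (0.14, adjusted p = 0.0889) and without miR-376a*A replicate 1 or control replicate 3 (adjusted p = 0.0566 and 0.0501). FN1 passed as lower with miR-376a*G after quantile normalization and when its probe sets were averaged (both -0.19, adjusted p = 0.0171 and 0.0301).

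The tested probe sets of FN1 differed in size but pointed the same way between the forms. The 3 other bright probe sets gave 0.24 to 0.25 with miR-376a*A and 0.36 to 0.38 between the forms. A dim one, singled out after its values were seen, read 43.1, 39.8 and 41.9 in control, 124.7, 120.7 and 118.4 with miR-376a*A and 32.1, 31.9 and 30.2 with miR-376a*G. It gave 1.25 ± 0.0777 with miR-376a*A (adjusted p = 2.48e-07), -0.28 ± 0.0777 with miR-376a*G (adjusted p = 0.0178) and 1.53 ± 0.0777 between the forms (SE, adjusted p = 5.45e-08). All 6 other probe sets of FN1 passed as higher with miR-376a*A than with miR-376a*G.

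TNC, tenascin-C, a glycoprotein abundant in glioma matrix, read 1555, 1610 and 1530 in control, 1782, 1767 and 1741 with miR-376a*A and 1553, 1540 and 1494 with miR-376a*G. It passed as 1.13-fold higher with miR-376a*A (0.17 ± 0.0515 SE, adjusted p = 0.0333) and between the forms (0.20 ± 0.0515 SE, adjusted p = 0.0153). Its call with miR-376a*A was lost after quantile normalization (0.07, adjusted p = 0.308), after centring on the median (0.13, adjusted p = 0.0812) and without any 1 of miR-376a*A replicates 1 to 3, miR-376a*G replicates 2 and 3 or control replicate 3 (adjusted p between 0.0554 and 0.113). The call between the forms was lost after centring on the median (0.15, adjusted p = 0.0611) and when replicate 1 or 2 of the A form, or 2 or 3 of the G form, was left out (adjusted p between 0.0569 and 0.0785). Yet 2 dimmer probe sets of TNC gave larger rises with miR-376a*A, 0.52 ± 0.0964 and 0.51 ± 0.0768 (SE), and both passed. The second of these also passed as higher with miR-376a*G (0.25 ± 0.0768 SE, adjusted p = 0.0298). SPARC, a collagen-binding protein, read 1088, 1170 and 1015 in control, 1172, 1188 and 1200 with miR-376a*A and 1083, 1017 and 1043 with miR-376a*G, and did not pass (0.12, -0.06 and 0.18 between the forms, adjusted p = 0.0701 for the last). A second probe set of SPARC passed between the forms (0.20, adjusted p = 0.0407). The direct difference on the main one passed after quantile normalization (adjusted p = 0.0403) and without control replicate 1 or 2 (adjusted p = 0.0299 and 0.0339). THBS1, thrombospondin-1, was dim at 14.5 to 42.3 on its main probe set and did not pass there. A second dim probe set of THBS1 passed as higher with miR-376a*G (0.35 ± 0.107 SE, adjusted p = 0.0314) and as lower with the A than with the G form (-0.40 ± 0.107 SE, adjusted p = 0.0212), against the direction of the other genes of this group.

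**Figure D4:**
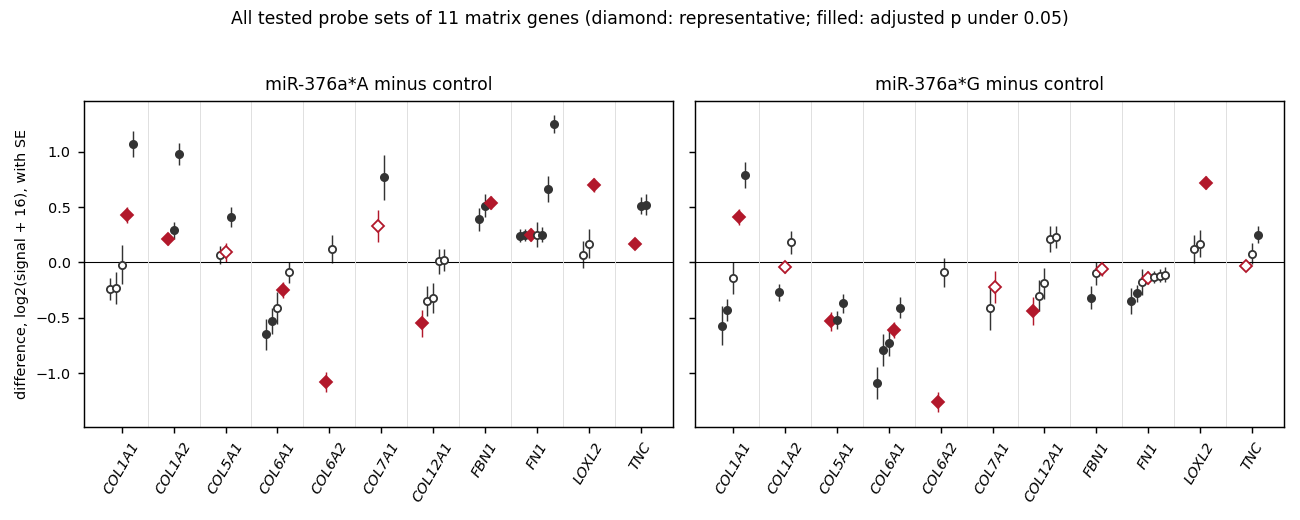
Difference from control in log2(signal + 16) with its SE for every tested probe set of 11 genes, with miR-376a*A at left and miR-376a*G at right. Diamonds are the representative probe sets, and filled points passed at an adjusted p under 0.05: those of COL1A1 lie on both sides of 0, COL6A2 and LOXL2 each have 1 large difference, and those of COL6A1 lie below 0 throughout.

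Probe sets of one gene were compared for the genes that passed. With miR-376a*A, 13 of 17 genes had another tested probe set, 10 had the same sign on every other one, 8 had a further call that way and 0 a call the other way. With miR-376a*G the counts were 9 of 12 genes, 7, 4 and 1, the last being COL1A1. Between the forms they were 10 of 15 genes, 10, 9 and 0. In those 10 genes every other tested probe set had the sign of the main one. The same agreement was not counted over all genes of the array. Over single arrays the groups did not overlap in 25, 17 and 29 of the 48 genes, beside 36.7%, 38.3% and 42.2% of all features. The 24 genes that passed in no comparison on their main probe sets had differences there of -0.37 to 0.39 (log2).

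Genes that make, fold and secrete collagen were taken from a list of related genes, of which 30 were tested. With miR-376a*A 5 rose and 3 fell, with miR-376a*G 2 rose and 8 fell, and between the forms 6 were higher and 2 lower with miR-376a*A. These are 26.7%, 33.3% and 26.7% of the list, beside 20.8%, 24.9% and 18.3% of all features. SERPINH1, the collagen-specific chaperone HSP47, read 256.8, 250.3 and 267.4 in control, 444.4, 425.9 and 463.0 with miR-376a*A and 226.7, 190.5 and 208.9 with miR-376a*G. It rose 1.68-fold with miR-376a*A (0.75 ± 0.075 SE, adjusted p = 1.89e-05) and was 2.05-fold higher with that form than with miR-376a*G (adjusted p = 9.4e-07). FKBP14, a prolyl isomerase of the endoplasmic reticulum, rose with both forms (1.26-fold and 1.44-fold). TMEM38B, an endoplasmic reticulum cation channel, fell 1.23-fold with miR-376a*A. CREB3L1, a membrane-bound transcription factor that drives collagen genes, and PLOD3, a lysyl hydroxylase, fell 1.56-fold and 1.31-fold with miR-376a*G. BMP1, which trims the carboxyl ends of procollagens, was 1.43-fold higher with miR-376a*A than with miR-376a*G.

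The counts of this list changed when single arrays were left out, and the shares of all features in those fits were not computed. With miR-376a*A 5, 3 and 4 genes in place of 8 passed without replicates 1, 2 and 3 of that form, and 13 without control replicate 2. With miR-376a*G 4 and 6 in place of 10 passed without its replicates 2 and 3, and between the forms 5, 4 and 4 in place of 8 when replicate 1 or 2 of the A form or replicate 2 of the G form was left out.

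Among 14 tested partners and receptors of the basement membrane, 3 rose and 1 fell with miR-376a*A, 1 rose and 2 fell with miR-376a*G, and 3 were higher and 1 lower between the forms. These are 28.6%, 21.4% and 28.6% of the list, and the share with miR-376a*G is near that of all features (24.9%), with 20.8% and 18.3% for the others. SMOC1, a basement membrane relative of SPARC, rose with both, from 79.3, 94.9 and 70.8 in control to 176.1, 172.9 and 193.7 with miR-376a*A (2.02-fold) and 164.5, 160.3 and 176.7 with miR-376a*G (1.88-fold). SDC1, a heparan sulphate proteoglycan receptor, read 460.2, 472.0 and 439.8 in control and moved apart, to 593.7, 600.8 and 564.0 with miR-376a*A (1.27-fold higher, adjusted p = 0.0024) and 348.3, 343.4 and 377.7 with miR-376a*G (1.27-fold lower, adjusted p = 0.00194). SDC4, a related receptor, fell 1.35-fold with miR-376a*A, and NID2, which bridges laminin and type IV collagen, fell 1.47-fold with miR-376a*G. Without control replicate 2, 5 in place of 3 genes of this list passed with miR-376a*G.

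Of 28 tested genes for elastic fibres and other matrix glycoproteins, 2 rose and 2 fell with either form, and between the forms 1 was higher and 2 lower with miR-376a*A, or 14.3%, 14.3% and 10.7% in all, beside 20.8%, 24.9% and 18.3% of all features. LUM, a small proteoglycan that spaces collagen fibrils, fell 1.41-fold with miR-376a*A, from 90.3, 78.4 and 94.6 to 60.3, 53.4 and 59.4. MFAP2, a microfibril protein that binds fibrillin, rose 1.28-fold with the A form, and ECM2 rose 1.36-fold and 1.58-fold with the A and G forms. With miR-376a*G, SPOCK1 fell 1.22-fold and THBS2, a relative of THBS1, rose 1.2-fold. FBN2, the fibrillin of development, was 1.3-fold higher with miR-376a*A than with miR-376a*G, and LTBP4, which holds latent TGF-beta in the matrix, 1.23-fold lower. With so few calls, leaving out single arrays gave 1 or 2 in place of 4 genes with miR-376a*A (without its replicate 3 or 1, or 2 without control replicate 2), 2 in place of 4 with miR-376a*G (leaving out replicate 2 of the A form, 2 or 3 of the G form or 3 of the control), and 1 to 7 in place of 3 between the forms (1 without any 1 of miR-376a*A replicates 1 and 2 and miR-376a*G replicates 1 to 3, 7 and 5 without control replicates 1 and 2).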

How the data were processed

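RNA of U87 cells given control miRNA or either form of miR-376a* (3 arrays each) was labelled with biotin-ULS, per the labels' protocols. The authors deposited linear probe-set signal intensities scaled to a common 2% trimmed mean of 100.009 to 100.011 on every array. Per the submitters' processing notes the software was GCOS 1.4.0.036; the signal algorithm is not given in the sources used here. Scaling hides a shift of all transcripts together.

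Signals were analysed as log2(signal + 16). Probe sets at or above the 40th percentile of mean log2 value (4.771) were kept, each gene was represented by its brightest probe set, and limma 3.58.1 (R 4.3.3) was fitted to 20068 features (all 9 arrays, intensity trend, 6 residual and 6.48 prior degrees of freedom, two-sided, Benjamini-Hochberg over all features). All probe sets kept were also fitted separately, with p adjusted over them. The code was checked on simulated data. Gene symbols came from the platform annotation, and all 64 matched RefSeq (GRCh38.p14) through Entrez identifiers. Upstream windows and miRNAs were read from RefSeq tables of that build. Genes were named where they passed in 1 of the 3 comparisons or were among the 8 brightest in control, and up to 3 genes of smallest p per list and comparison. Members and lists were chosen with earlier results of these data known. Alternatives covered scaling, filter, offset, variance model, probe sets, arrays and the replicate block. Replicates are biological per the labels, but nothing says how separate the cultures were, so p-values measure the spread between these samples. Plots used Python 3.11.15 and matplotlib 3.10.9.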

Additional observations from a re-analysis of the deposited data

Results flagged for a closer look

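For 15 genes the effects of the forms against the same control differed, by limma's direct test of the A form against the G form. The log2 difference of miR-376a*A minus miR-376a*G was positive in 13 of them: LAMA5 at 0.77 (0.44, not past the threshold, without miR-376a*G replicate 2), COL27A1 at 0.65, LOXL1 at 0.64, COL15A1 at 0.63, COL5A1 at 0.62, FBN1 at 0.59, COL13A1 at 0.58, COL7A1 at 0.55, FN1 at 0.38, COL6A1 at 0.37, COL1A2 at 0.25, and COL6A3 and TNC at 0.20 each. It was negative in LAMA1 at -0.60 and COL5A2 at -0.55. Groups of 3 arrays are too small for a test of outlying samples.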

How the results depend on the processing

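Over 20 alternatives, of which 9 left out an array, the number of these genes that passed was within 1.5 times the main count in every comparison: 12 to 21 with miR-376a*A (17), 9 to 15 with miR-376a*G (12) and 11 to 22 between the forms (15). Of the single calls, 10 of 17, 7 of 12 and 11 of 15 were kept under every alternative run, and 0 changed sign. Leaving out arrays kept 11 of 17, 8 of 12 and 11 of 15. Without the filter on dim probe sets COL16A1, COL6A1 and TNC with miR-376a*A, COL12A1, COL5A2 and LAMA5 with miR-376a*G, and COL7A1 and LAMA5 between the forms lost their calls (adjusted p between 0.052 and 0.102). An offset of 64 lowered LAMA1 (-0.37 with miR-376a*A), COL15A1 (-0.29 with miR-376a*G) and LAMA5 (-0.51 with miR-376a*G) by over 1.5 times, and they still passed. Fits with the replicate block gave 16, 12 and 17 genes, and TNC with miR-376a*A was the call lost (adjusted p = 0.0617). Arrays with the same number did not deviate together (correlations of -0.11 to 0.071), so the numbers were not taken as pairs. Limits come from the number of arrays and from dim probe sets, since 16 genes could not be tested.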
